A study of Mus musculus with 24 samples.

Results

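Pioglitazone and gentamicin, each given alone, were compared in the cultured organ of Corti at an early time. The libraries were organ of Corti explants exposed for 6 h to 10 μM pioglitazone (PIO, 3 libraries) and explants exposed for 6 h to 50 μM gentamicin (GM, 3 libraries), chosen by their labelled treatment and time, and these are 6 of the 24 libraries in the series. All explants were dissected from 5-day-old C57BL/6N mice of both sexes and kept for 24 h in culture medium with penicillin, serum and no drug before treatment, so the control libraries share that preculture. Each library pooled 6 explants, and the labels do not say which pups went into which pool. Explants without drugs (CTRL, 3 libraries at 6 h) and with both drugs at the same doses (PIO+GM, 3 libraries at 6 h) are given beside the comparison, and PIO and GM libraries of 24 h are used to compare the times. An explant is a model of the tissue in a dish: it has no blood supply, and the drug reaches it from the medium.

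The organ of Corti holds the sensory hair cells of hearing, which stand among supporting cells, with nerve fibres, glia and connective tissue cells at its edges. Gentamicin is an aminoglycoside antibiotic that enters hair cells and can kill them. Pioglitazone is a thiazolidinedione, an agonist of the nuclear receptor PPARγ, which pairs with retinoid X receptors on DNA and turns on genes of lipid uptake and fatty acid oxidation, and which can dampen inflammatory transcription. Interferons act through transcription factors that bind response elements in front of interferon-stimulated genes, whose products include antiviral enzymes, guanylate-binding proteins and the ubiquitin-like modifier Isg15.

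Library totals of the 6 libraries ran from 9568348 to 15013413 counts, at which 3 counts equal 0.204 to 0.318 CPM. CPM values here are read counts divided by the library's total over the tested genes after trimmed-mean (TMM) scaling, and such counting limits cover counting error only. All 16 markers checked were detected in every library: the hair cell markers Myo7a, Myo6, Pou4f3, Otof, Slc17a8, Ocm, Slc26a5 and Tmc1, and the supporting cell markers Sox2, Prox1, Fgfr3, Gjb2, Gjb6, Tecta, Tectb and Otog. None of the 16 passed the test between the drugs. The library GM replicate 1 stood apart in Y-linked genes, which took 10.01 CPM in GM replicate 1 and 169 to 357 CPM in the other 5; all 21 genes given below passed with these counts as a covariate. The labels do not say that the 3 libraries of a group came from separate cultures. The p-values rest on the spread between libraries within groups, estimated over all 24 libraries in 8 groups and not over the 6 compared alone.

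Between the drugs, 21 of 16317 tested genes passed an adjusted p of 0.05 (edgeR quasi-likelihood test, Benjamini-Hochberg). Of these, 4 were higher with pioglitazone (0.0245% of the tested genes) and 17 were lower (0.104%). The higher genes were Cpt1a, Creg1, Pomk and Ulk2, with log2 fold changes from 0.49 to 0.82. The lower genes ran from Sumo3 at -0.44 to Plau at -2.13 on the log2 scale. The median over all tested genes was 0.00, and an unadjusted p under 0.05 was reached by 8.5% of genes upward and 7.21% downward. The 3 PIO libraries all stood above the 3 GM libraries in 9.47% of genes and all below them in 8.71%.

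PIO and GM libraries that share a replicate number had deviations from their group means that correlated at 0.18, 0.43 and 0.68. Of the pairs with different numbers, PIO replicate 2 with GM replicate 1 was the highest at 0.22. A fit with the replicate number as a block called 331 genes, 115 higher (0.705%) and 216 lower (1.32%), among them all 21. Taking out a smooth trend with GC content gave 37 higher and 70 lower genes. The fit above takes its estimate of the spread from all 24 libraries. With only the 12 libraries of 6 h it left 1 gene, Pdgfra, and with the 6 compared libraries alone 0 genes passed, although 1420 reached an unadjusted p under 0.05 there. Left out one at a time, GM replicates 1, 2 and 3 left 11, 10 and 15 of the 21 calls, and PIO replicates 1, 2 and 3 left 11, 13 and 18, always with all 21 in the same direction. The call was kept whichever library was left out by 10 genes: Cpt1a, Plau, Gap43, Axl, Olfml3, Tmem198b, Ccdc9b, Ank3, Pdgfra and Krt19.

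**Figure D1:**
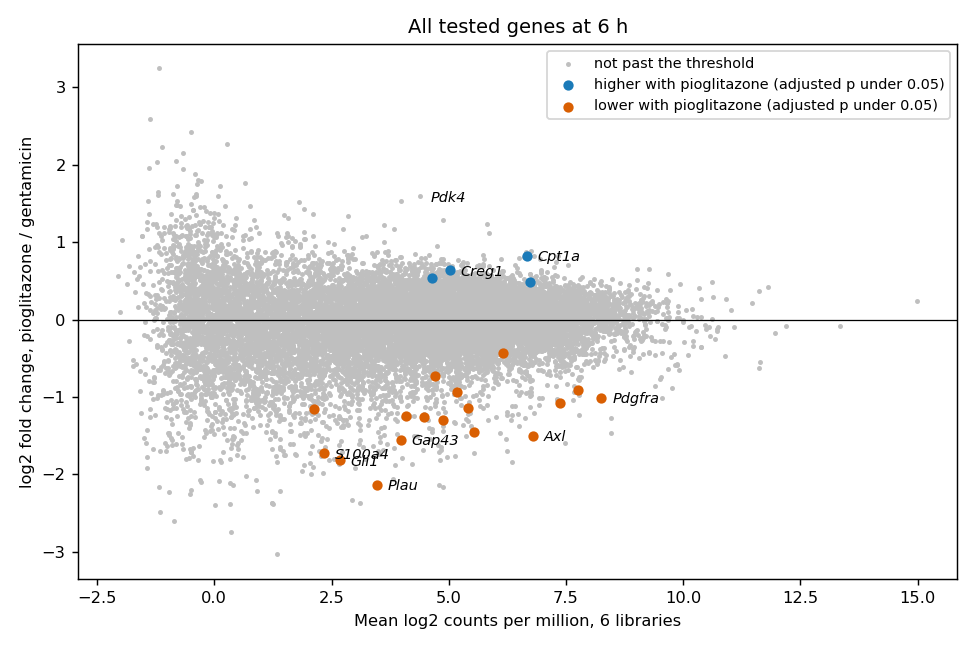
Log2 fold change of pioglitazone over gentamicin at 6 h (vertical axis) against the mean log2 CPM of the 6 libraries (horizontal axis), 1 point for each of 16317 tested genes. The 4 genes higher and the 17 genes lower with pioglitazone are coloured, and most points lie around a median of 0.00.

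Cpt1a led the higher genes. It encodes carnitine palmitoyltransferase 1A, which admits long-chain fatty acids to the mitochondrion, and lies at chr19:3322326-3385735 (GRCm38, the build named mm10 in the submitters' notes). Its level was 71.0, 84.9 and 73.2 CPM with gentamicin and 148, 121 and 136 CPM with pioglitazone, so the groups did not overlap. The difference was 1.77-fold (log2 fold change 0.82 ± 0.12 SE, adjusted p = 0.00288). Control libraries held 71.2, 83.5 and 64.8 CPM and libraries with both drugs 144, 116 and 129 CPM, so the level followed the presence of pioglitazone in all 12 libraries of 6 h.

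The other higher genes differed less. Creg1, a lysosomal glycoprotein, was at 23.2, 23.3 and 31.6 CPM with gentamicin and 35.7, 44.3 and 41.6 CPM with pioglitazone (log2 fold change 0.63 ± 0.12 SE, adjusted p = 0.0271). Ulk2, a kinase that starts autophagy, was at 84.5, 88.1 and 95.1 against 128, 125 and 122 CPM (0.49 ± 0.09 SE, adjusted p = 0.0217). Pomk, a kinase of the sugar chain of dystroglycan, was at 20.9, 21.1 and 20.3 against 32.7, 28.4 and 29.4 CPM (0.54 ± 0.10 SE, adjusted p = 0.0376). In each of the 3 genes the groups were fully apart, and with both drugs Pomk stood between them at 23.6, 24.6 and 25.9 CPM.

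Among genes higher with pioglitazone, 6 that did not pass and did not overlap were taken by smallest p. The first of them by fold was Pdk4, the pyruvate dehydrogenase kinase that turns cells from glucose to fatty acid fuel. It held 8.50, 12.2 and 15.6 CPM with gentamicin and 30.5, 44.9 and 34.5 CPM with pioglitazone (log2 fold change 1.59 ± 0.32 SE, adjusted p = 0.0541, and 0.0132 with the replicate block). Control libraries reached 13.8, 33.2 and 11.9 CPM, so 1 control library overlapped the PIO range. The other 5 were Slc35a1, the CMP-sialic acid transporter of the Golgi, Mtmr1, a phosphoinositide phosphatase, Entpd5, a nucleotide phosphatase of the endoplasmic reticulum, Fam161b and Oga, which removes O-linked N-acetylglucosamine. Their log2 fold changes were 0.48 to 0.84 with adjusted p from 0.0532 to 0.0629, and each had an adjusted p under 0.05 with the block.

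The list of PPAR targets, genes of fatty acid uptake, oxidation and storage, had 39 tested members. Of these, 28 lay above 0 and the median log2 fold change was 0.17, against 0.00 over all genes. Cpt1a passed the test, and 11 had all PIO libraries above all GM libraries while 4 had them below (28.2% and 10.3%, beside 9.47% and 8.71% of all tested genes). Without PIO replicate 3 the median was 0.10 and without GM replicate 3 it was 0.29. With the replicate block 5 members were higher and 1 was lower, beside 0.705% and 1.32% of all tested genes, and the 4 not yet given were named for that after their values were seen.

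Their roles lie in lipid handling and mitochondrial fat oxidation. Angptl4, a secreted inhibitor of lipoprotein lipase, was at 5.47, 13.6 and 9.86 CPM with gentamicin and 21.4, 26.6 and 35.3 CPM with pioglitazone (adjusted p = 0.117, and 0.0477 with the block). Etfdh, which hands electrons from fatty acid oxidation to the respiratory chain, was at 39.5, 39.6 and 43.3 against 57.2, 66.9 and 53.6 CPM (adjusted p = 0.0991, and 0.0416 with the block). Acadl, the long-chain acyl-CoA dehydrogenase, was at 45.7, 44.7 and 47.7 against 55.3, 68.3 and 67.2 CPM (adjusted p = 0.101, and 0.035 with the block). The member in the other direction was Slc27a1, a fatty acid transporter of the cell surface, at 122, 119 and 128 CPM with gentamicin and 58.1, 35.4 and 76.8 CPM with pioglitazone (adjusted p = 0.0681, and 0.028 with the block). Other well-known targets did not pass in either fit: the log2 fold change was 0.07 for Cd36, a fatty acid receptor, and -0.28 for Plin2, which coats lipid droplets.

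The receptors themselves did not pass the test. Pparg held 2.10, 2.02 and 3.06 CPM with gentamicin and 2.02, 2.33 and 2.46 CPM with pioglitazone, a log2 fold change of -0.08 ± 0.38 SE. Ppara and Ppard had log2 fold changes of 0.09 and -0.17, and the groups overlapped for all 3. Of the 16 receptors, retinoid X receptors and cofactors in that list, 0 passed the test, 0 reached an unadjusted p under 0.05, and the median was -0.12, or -0.19 without PIO replicate 3 and -0.02 without PIO replicate 2. DESeq2 called 0 of them. Ppargc1b, a coactivator, had the lowest p of the list (-0.54, adjusted p = 0.367) and overlapped. Rxra did not overlap, at 71.2, 74.5 and 76.7 against 64.1, 28.5 and 69.5 CPM (adjusted p = 0.398).

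Promoter windows from RefSeq (GRCm38.p6), from 250 bases before to 50 after a gene start, were searched on both strands for 2 motifs. The PPAR element was written as direct repeats of AGGTCA with 1 base of any kind between them, and this exact spelling was found in 0.0481% of 27025 genes with a window and in 0 of the 29 tested PPAR targets that had one. The window of Cpt1a in that table belongs to a start inside the gene span given above, and it held neither motif.

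Interferon-stimulated genes had lower estimates with pioglitazone as a group, although none of them passed the test. Isg15 lies at chr4:156199424-156200818 and held 9.51, 14.3 and 12.7 CPM with gentamicin and 5.00, 2.22 and 2.75 CPM with pioglitazone. The groups did not overlap, and the log2 fold change was -1.86 ± 0.57 SE with an adjusted p of 0.155, or 0.0596 with the replicate block. Control libraries held 3.38, 5.38 and 1.20 CPM, near the PIO level. Libraries with both drugs held 21.7, 9.23 and 5.67 CPM, a range that took in the whole GM range and more.

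Usp18, Ifi44 and Irf7 had no overlap between the drugs either. Usp18, the protease that removes Isg15 from proteins, was at 17.2, 27.7 and 20.0 CPM with gentamicin and 9.48, 5.08 and 4.85 CPM with pioglitazone (log2 fold change -1.74, adjusted p = 0.233, and 0.0788 with the block). Ifi44, an antiviral protein, was at 12.8, 22.1 and 24.7 against 9.56, 6.14 and 5.14 CPM (-1.52, adjusted p = 0.236). Irf7, the transcription factor that amplifies the interferon loop, was at 14.6, 17.6 and 27.3 against 10.9, 3.28 and 7.53 CPM (-1.45, adjusted p = 0.263). In all 3, every PIO library stood below every GM library, and PIO replicate 1 was the highest of its group.

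**Figure D2:**
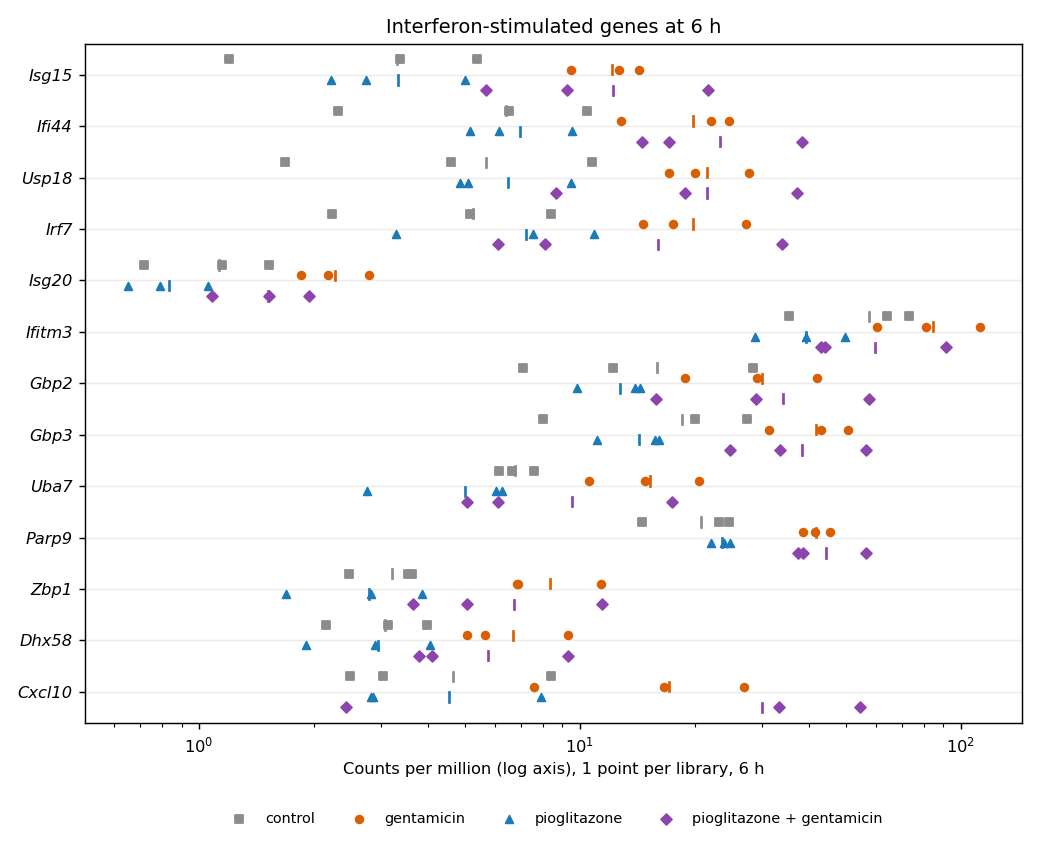
Levels of 13 interferon-stimulated genes at 6 h in CPM (log axis), 1 point per library and a bar at the mean, for control, gentamicin, pioglitazone and both drugs. For Isg15 the GM libraries lie at 9.51 to 14.3 CPM, the PIO libraries at 2.22 to 5.00 and the control libraries at 1.20 to 5.38, while the libraries with both drugs spread from 5.67 to 21.7.

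Described as lists, 4 groups of the response lay below 0. Of 37 tested antiviral effectors, 36 had a lower estimate with pioglitazone and 27 did not overlap, with a median log2 fold change of -1.08. Of 16 interferon GTPases 14 had a lower estimate and 10 did not overlap (median -0.92). All 11 genes of ISGylation and interferon-induced PARPs had a lower estimate and 8 did not overlap (median -0.82). Of 17 nucleic acid sensors 15 had a lower estimate and 8 did not overlap (median -0.69, or -0.44 with a minimum of 10 counts in every library). These counts of members not overlapping stand beside 8.71% of all tested genes.

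None of these members passed the test. An unadjusted p under 0.05 was reached by 23, 9, 8 and 7 of them in the order given, beside 7.21% of all genes downward. DESeq2 called 5, 0, 3 and 1 of them lower, beside 215 of all 16317 tested genes. With the replicate block Uba7 and Parp9 passed, 2 of the 81 tested members of the 4 lists, beside 1.32% of all tested genes lower. Uba7, the E1 enzyme that activates Isg15, was at 10.6, 14.8 and 20.5 CPM with gentamicin and 6.23, 2.75 and 6.01 CPM with pioglitazone (log2 fold change -1.60, adjusted p = 0.0964, and 0.0387 with the block). Parp9, an ADP-ribosyltransferase that works with Dtx3l, was at 38.5, 41.5 and 45.4 against 24.0, 22.1 and 24.7 CPM (-0.82, adjusted p = 0.103, and 0.0477 with the block). The control libraries of Parp9 held 23.2, 24.7 and 14.5 CPM, within or below the PIO range.

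Set side by side with the controls, which both contrasts share, the median log2 fold change of the antiviral effectors was -0.07 for pioglitazone over control and 1.16 for gentamicin over control. For the interferon GTPases these medians were 0.13 and 0.91, for ISGylation and PARPs 0.09 and 0.96, and for the sensors -0.06 and 0.41. No named gene passed the test of gentamicin against control at 6 h, where adjusted p was 1.00 for every one of the 21 genes above and for Isg15. Several members are near-copies of each other (Ifit3 and Ifit3b, Oas1a and Oas1g, Tgtp1 and Tgtp2), and how reads with several matches were counted is not given in the sources used here, so their values are uncertain.

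The markers of immune cells were measured beside this. Macrophage genes summed to 234 to 319 CPM with gentamicin and 207 to 279 CPM with pioglitazone, ranges that overlap. Of 24 tested macrophage markers 0 passed the test, 3 reached an unadjusted p under 0.05, DESeq2 called 0, and none had groups without overlap. Their median log2 fold change was -0.26, and 0.23 without GM replicate 3 and -0.47 without PIO replicate 3. No macrophage marker was at 0 counts in all 6 libraries. The part of macrophage content in the interferon values was not tested.

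In the promoter windows, the interferon response element was written as GAAA, 2 bases of any kind and GAAA. It was found in 3.99% of all 27025 genes, in 3.63% of the 12624 tested genes with a window, and in 33 of the 58 members of these 4 lists that had a window (56.9%). Shares by list were 18 of 30 antiviral effectors, 9 of 10 interferon GTPases, 2 of 7 genes of ISGylation and PARPs and 4 of 11 sensors. The median log2 fold change was -1.08 in the 33 members with the element and -0.78 in the 25 without it. Over all tested genes it was -0.03 with the element and 0.01 without. A match is a stretch of letters and not a measured site. Windows of 4 genes with matches are shown from 250 bases before the start up to the start, 5′ to 3′ on the gene's strand, with matches on either strand in capitals, for Isg15 (chr4:156200819-156201068, minus strand, 3 overlapping matches), Cxcl10 (chr5:92348890-92349139, minus strand, 1 match), Gbp3 (chr3:142559794-142560043, plus strand, 2 overlapping matches, from a start slightly inside the outer limit of the gene) and Ifit3 (chr19:34583279-34583528, plus strand, 2 matches).
Isg15: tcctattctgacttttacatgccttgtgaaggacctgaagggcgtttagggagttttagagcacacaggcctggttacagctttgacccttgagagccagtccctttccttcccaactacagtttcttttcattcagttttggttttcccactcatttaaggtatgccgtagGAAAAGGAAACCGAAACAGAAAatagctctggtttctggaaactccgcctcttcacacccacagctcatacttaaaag
Cxcl10: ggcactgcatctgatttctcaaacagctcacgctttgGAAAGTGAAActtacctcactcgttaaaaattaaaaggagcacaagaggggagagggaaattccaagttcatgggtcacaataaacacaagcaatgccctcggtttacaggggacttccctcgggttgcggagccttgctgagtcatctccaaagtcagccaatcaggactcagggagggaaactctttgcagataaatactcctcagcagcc
Gbp3: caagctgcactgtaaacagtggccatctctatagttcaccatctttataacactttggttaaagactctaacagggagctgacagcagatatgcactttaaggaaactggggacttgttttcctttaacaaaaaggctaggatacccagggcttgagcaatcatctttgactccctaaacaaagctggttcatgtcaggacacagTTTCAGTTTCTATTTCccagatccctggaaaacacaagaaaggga
Ifit3: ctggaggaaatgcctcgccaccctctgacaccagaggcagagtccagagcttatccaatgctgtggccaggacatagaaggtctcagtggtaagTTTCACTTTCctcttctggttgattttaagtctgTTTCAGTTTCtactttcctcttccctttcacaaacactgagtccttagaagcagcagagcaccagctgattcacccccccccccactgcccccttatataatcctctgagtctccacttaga

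Cxcl10, a chemokine that draws T cells, was at 7.57, 27.0 and 16.7 CPM with gentamicin and 7.90, 2.86 and 2.82 CPM with pioglitazone, so PIO replicate 1 lay inside the GM range (log2 fold change -1.91 ± 0.80 SE, adjusted p = 0.262). Gbp3, a guanylate-binding protein, was at 31.4, 43.0 and 50.6 against 15.7, 16.1 and 11.1 CPM (-1.55 ± 0.55 SE, adjusted p = 0.201, and 0.0511 with the block). Ifit3, a tetratricopeptide protein of the antiviral response, was at 31.4, 69.5 and 55.0 against 22.3, 13.2 and 11.9 CPM (-1.72 ± 0.68 SE, adjusted p = 0.241).

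The remaining genes of the list the study itself chose from these samples, which is not independent evidence of direction, varied more. Of its 18 genes 0 passed the test, and 15 had a lower estimate with pioglitazone (median -0.99). An unadjusted p under 0.05 was reached by 11 lower and 1 higher, beside 7.21% and 8.5% of all tested genes. DESeq2 called 2 lower, beside 215 of all 16317 tested genes. Il16, a cytokine that attracts CD4+ cells, was at 45.3, 61.5 and 34.1 CPM with gentamicin and 24.9, 23.6 and 13.2 CPM with pioglitazone. Its log2 fold change was -1.19 ± 0.33 SE, with an adjusted p of 0.118, or 0.0231 with the block. It was the one gene of the list called in the blocked fit, beside 1.32% of all tested genes lower.

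Toll-like receptors sense microbial molecules and signal through adaptors. Tlr2 was at 13.5, 15.7 and 14.0 CPM with gentamicin and 14.7, 19.5 and 12.7 CPM with pioglitazone (log2 fold change 0.11), and Tlr4 at 30.3, 39.6 and 52.3 against 24.4, 37.7 and 34.0 CPM (-0.35). Tirap and Myd88, which link the receptors to kinases, had log2 fold changes of -0.35 and -0.44, and all 4 overlapped between the groups. Irf3, an interferon regulatory factor, had one of 0.14 and overlapped too. Pias1, a SUMO ligase, was at 58.2, 55.9 and 58.6 against 66.2, 75.4 and 65.8 CPM, without overlap (0.26 ± 0.12 SE, adjusted p = 0.292). Of 31 tested genes of the toll-like receptor pathway 26 had a lower estimate, 3 were lower and 2 higher without overlap (9.68% and 6.45%, beside 8.71% and 9.47% of all tested genes), 0 passed or reached an unadjusted p under 0.05, DESeq2 called 0, and their median was -0.24, or -0.42 without PIO replicate 3 and -0.04 without GM replicate 3.

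Chemokines and their receptors draw immune cells into tissue. Of the 25 tested members 0 passed, 8 were lower and 1 higher at an unadjusted p under 0.05 (7.21% and 8.5% of all tested genes), 7 were lower and 1 higher without overlap (28% and 4%, beside 8.71% and 9.47%), DESeq2 called 2 lower, and the median was -0.37, or -0.87 without PIO replicate 2 and -0.13 without PIO replicate 1. Cxcr4, the receptor of Cxcl12, was at 23.8, 36.4 and 44.7 CPM with gentamicin and 16.9, 14.1 and 21.3 CPM with pioglitazone (-1.0, adjusted p = 0.121). Cxcl14 was at 62.8, 107 and 28.2 against 8.16, 26.2 and 11.1 CPM (-2.13, adjusted p = 0.148), and Cxcl16 and Ccl9 also had all PIO libraries below all GM libraries. Ccl2, a monocyte attractant, was at 9.67, 32.2 and 10.1 against 6.05, 27.3 and 4.34 CPM, with replicate 2 the highest in both groups. Gbp2 was at 18.8, 29.2 and 42.0 against 14.0, 14.4 and 9.84 CPM (-1.24, adjusted p = 0.217), and Ccl12 at 1.51, 3.37 and 1.5 against 0.175, 0.953 and 0.145 CPM, of which 2 PIO values lie below the level of 3 counts.

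Of the 17 genes lower with pioglitazone, 2 are receptor tyrosine kinases. Axl, the TAM receptor that binds Gas6 (chr7:25756500-25788924), was at 177, 196 and 192 CPM with gentamicin and 69.8, 51.4 and 78.5 CPM with pioglitazone. It fell 2.83-fold (log2 fold change -1.50 ± 0.21 SE, adjusted p = 0.00261), and control libraries held 180, 181 and 150 CPM. Pdgfra, the receptor of platelet-derived growth factor found on mesenchymal cells (chr5:75151322-75198206), was at 418, 427 and 458 against 188, 220 and 239 CPM (-1.01 ± 0.14 SE, adjusted p = 0.00261). Among the 5 genes of the TAM receptors and their ligands Axl alone passed, beside 0.104% of all tested genes lower. In bulk RNA of whole explants, fewer cells of a type and less RNA per cell cannot be told apart.

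Plau, the urokinase that activates plasminogen (chr14:20836662-20843388), had the lowest log2 fold change of the 21 genes. It was at 15.3, 22.2 and 33.8 CPM with gentamicin and 3.60, 6.35 and 6.29 CPM with pioglitazone (4.39-fold lower, log2 fold change -2.13 ± 0.32 SE, adjusted p = 0.00288). Olfml3, a secreted olfactomedin protein, was at 69.8, 86.2 and 75.6 against 28.6, 32.1 and 23.7 CPM (-1.46 ± 0.21 SE, adjusted p = 0.00261). Scara5, a ferritin receptor, was at 48.4, 38.3 and 56.0 against 14.0, 15.8 and 28.3 CPM (-1.29 ± 0.25 SE, adjusted p = 0.0434). In all 3 genes the gentamicin and pioglitazone libraries were apart, and libraries with both drugs lay near those with pioglitazone alone: for Plau they held 8.30, 6.26 and 5.40 CPM.

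Gap43, the growth cone protein of neurons (chr16:42248552-42340651), was at 29.7, 31.8 and 19.9 CPM with gentamicin and 10.2, 9.21 and 8.25 CPM with pioglitazone (-1.56 ± 0.23 SE, adjusted p = 0.00288). Ank3, the ankyrin that anchors channels to spectrin (chr10:69533486-70027436), was at 266, 263 and 192 against 110, 107 and 125 CPM (-1.07 ± 0.14 SE, adjusted p = 0.00236), the lowest p of the comparison. Krt19, an epithelial keratin, was at 55.6, 43.6 and 49.8 against 27.5, 24.0 and 26.6 CPM (-0.93 ± 0.14 SE, adjusted p = 0.00293, and 0.0575 once the GC trend was removed). The membrane proteins Emp3, Plp2 and Tmem198b also fell, by 1.15, 0.73 and 1.26 on the log2 scale, with adjusted p of 0.0274, 0.0274 and 0.00288.

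Gli1, a transcription factor and target of Hedgehog signalling, was at 11.6, 14.9 and 9.05 CPM with gentamicin and 4.21, 2.86 and 2.97 CPM with pioglitazone (-1.82 ± 0.35 SE, adjusted p = 0.0434). Chd3, a chromatin remodeller, was at 308, 285 and 303 against 163, 120 and 194 CPM (-0.91 ± 0.16 SE, adjusted p = 0.0204). S100a4, a calcium-binding protein, was at 7.57, 9.52 and 10.0 against 2.46, 3.60 and 2.17 CPM (-1.73 ± 0.31 SE, adjusted p = 0.0262). Sumo3, a small modifier of proteins, had the least fold among the lower genes (-0.44 ± 0.08 SE, adjusted p = 0.0434). Ldhd, the D-lactate dehydrogenase, and Ccdc9b fell by 1.16 and 1.25 on the log2 scale, with adjusted p of 0.0244 and 0.00261.

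**Figure D3:**
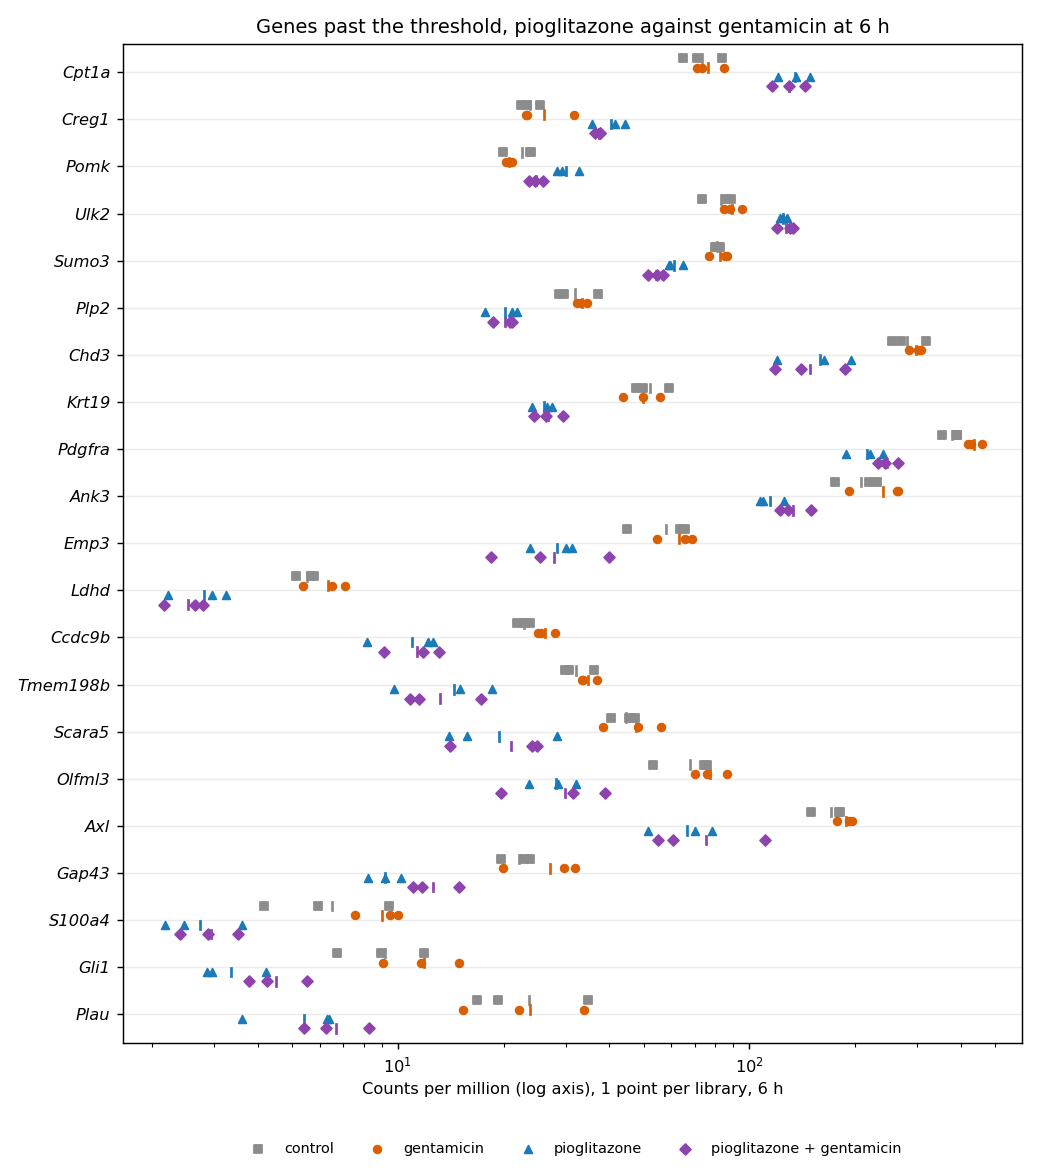
Levels of the 21 genes past the threshold in CPM (log axis), 1 point per library and a bar at the mean, in the 4 groups of 6 h. In each gene the gentamicin and pioglitazone libraries are apart, as for Axl at 177 to 196 against 51.4 to 78.5 CPM, and in S100a4 the control libraries, at 4.15 to 9.41 CPM, lie between or among the gentamicin and pioglitazone libraries.

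Against the shared controls, gentamicin alone moved these 21 genes little. The log2 fold change of gentamicin over control ran from -0.07 to 0.48 in the 17 lower genes and from -0.12 to 0.14 in the 4 higher genes. That of pioglitazone over control ran from -2.12 to -0.40 and from 0.42 to 0.88. For the interferon-stimulated genes above the larger difference lay on the side of gentamicin, with 1.88 for Isg15 in gentamicin over control and 0.01 in pioglitazone over control.

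Markers of glia and nerve and the collagens had medians below 0. Schwann cell genes had a median log2 fold change of -1.15 over 18 tested members, of which 16 had a lower estimate, 7 were lower without overlap (38.9%, beside 8.71% of all tested genes) and 0 passed the test. An unadjusted p under 0.05 was reached by 9 of them, and DESeq2 called 2. Their summed level was 2603, 3749 and 1662 CPM with gentamicin and 885, 2249 and 886 CPM with pioglitazone, so the groups overlapped, and replicate 2 was the highest in both. Without PIO replicate 2 the median was -1.84.

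Erbb3, the neuregulin receptor of Schwann cells, was at 191, 202 and 133 CPM with gentamicin and 101, 76.3 and 82.8 CPM with pioglitazone (-1.02, adjusted p = 0.0766, and 0.0287 with the block). Ncmap, a protein of compact myelin, was at 19.8, 27.6 and 16.4 against 6.05, 12.0 and 4.92 CPM (-1.49, adjusted p = 0.148, and 0.0287 with the block). Gldn was the remaining Schwann cell gene past the threshold in the blocked fit (adjusted p = 0.0415). In all 3 of the 18 members were lower there, beside 1.32% of all tested genes.

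Spiral ganglion neuron genes had a median of -0.76 over 20 tested members, 18 of them with a lower estimate, and Gap43 alone passed. It was also the only one without overlap (5% of the list, beside 8.71% of all tested genes). Their summed level was 993, 1106 and 655 CPM with gentamicin and 648, 1045 and 516 CPM with pioglitazone. The median was -0.39 without PIO replicate 1 and -1.31 without PIO replicate 2. Whether Gap43 moved with the number of nerve fibres in a pool was not tested.

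Of 29 tested collagens 26 had a lower estimate (median -0.42), 7 were lower without overlap (24.1%, beside 8.71% of all tested genes) and 0 passed, with 8 at an unadjusted p under 0.05 and 2 called by DESeq2. Col6a3, a chain of the beaded collagen VI, was at 576, 519 and 703 CPM with gentamicin and 217, 156 and 278 CPM with pioglitazone (-1.46, adjusted p = 0.111, and 0.0167 with the block). The median of the collagens was -0.75 without PIO replicate 3. Of 24 genes of mesenchyme and stria vascularis 12 had higher and 12 lower estimates, with a median of 0.00 that changed sign in 8 of 15 alternative settings and ran from -0.65 to 0.44 with 1 library left out. The matrix protease list had 25 tested members, 21 with a lower estimate and 6 lower without overlap (24%, beside 8.71% of all tested genes). Their median was -0.40, or -0.63 without PIO replicate 3 and -0.25 without GM replicate 3. Plau passed, beside 0.104% of all tested genes lower. Timp3, an inhibitor of metalloproteinases, did so with the block (-0.64, adjusted p = 0.118, and 0.0317 with the block), where 1.32% of all tested genes were lower.

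All 17 tested targets of YAP and SRF, genes of contractile fibres and adhesion, had a lower estimate with pioglitazone, and 11 did not overlap (64.7%, beside 8.71% of all tested genes). Axl was the one past the threshold, beside 0.104% of all tested genes lower. With the block Cnn2, Flna, Tpm1 and Tpm2 joined it, all of them actin-binding proteins and named after their values were seen. That made 5 of 17 lower with the block, beside 1.32% of all tested genes. DESeq2 also called 5 lower, beside 215 of all 16317 tested genes. Cnn2 was at 52.6, 44.1 and 60.1 CPM with gentamicin and 26, 20.3 and 35.8 CPM with pioglitazone (-0.93, adjusted p = 0.0541, and 0.00334 with the block). Tpm2 was at 15.8, 16.0 and 23.1 against 7.20, 7.52 and 11.6 CPM (-1.05, adjusted p = 0.0541, and 0.0175 with the block). The median of the list was -0.43, and -0.19 with the GC trend removed. Of 12 tested keratin genes 11 had a lower estimate (median -0.84), and 7 were lower without overlap (58.3%, beside 8.71% of all tested genes). Krt7 passed with the block beside Krt19, where 1.32% of all tested genes were lower, and DESeq2 called 2 keratin genes lower.

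Hair cell genes had a median of -0.16 over 41 tested members and supporting cell genes one of 0.07 over 29, and in both lists 0 passed, with 4 and 3 at an unadjusted p under 0.05 and 0 called by DESeq2. Without GM replicate 1 the hair cell median was 0.04 and the supporting cell median 0.17, without GM replicate 3 the former was -0.39, and without PIO replicate 1 the latter was -0.02. Slc17a8, the glutamate transporter of inner hair cells, had the smallest p, at 77.6, 116 and 44.6 CPM with gentamicin and 31.0, 48.4 and 12.9 CPM with pioglitazone. The groups overlapped between GM replicate 3 and PIO replicate 2, but within each replicate number the PIO library was lower (-1.37, adjusted p = 0.192, and 0.0219 with the block). Hes5, a Notch target in supporting cells, was at 0.336, 0.590 and 0.544 against 3.16, 1.06 and 2.89 CPM (2.26, adjusted p = 0.249), with few counts in the GM libraries. Gfap, an intermediate filament protein of glia that is also in the supporting cell list, was at 2.19, 5.64 and 1.56 against 0.439, 1.16 and 0.724 CPM (-2.02, adjusted p = 0.233). Of the 29 members 1 was higher and 3 were lower without overlap (3.45% and 10.3%, beside 9.47% and 8.71% of all tested genes).

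All 18 genes of the unfolded protein response had a higher estimate with pioglitazone, with a median of 0.16, 0 past the threshold, 1 at an unadjusted p under 0.05, 0 called by DESeq2 and none without overlap. Their median was 0.05 without GM replicate 2 and 0.29 without GM replicate 3. Hspa5, the main chaperone of the endoplasmic reticulum, was at 884, 580 and 1101 CPM with gentamicin and 1025, 1291 and 1219 CPM with pioglitazone. Ccnd1, the cyclin of early G1 phase, was at 125, 110 and 147 against 52.6, 40.0 and 69.6 CPM (-1.23, adjusted p = 0.0991, and 0.00492 with the block). Pcna, the sliding clamp of DNA replication, was at 28.3, 34.6 and 31.6 against 41.8, 64.6 and 38.1 CPM (0.61, adjusted p = 0.169, and 0.0413 with the block). The medians of p53 targets, NRF2 targets, the integrated stress response and the cell cycle list were between -0.07 and 0.04, and each changed sign in at least 2 of 15 alternative settings.

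The log2 fold change fell with the GC content of a gene (Spearman rho = -0.44 across 15389 genes with a value, 94.3% of those tested, which are not independent), and its median was 0.19 in genes with a GC content under 46.7% and -0.18 in genes above 53%. Zinc finger genes had a median of 0.28 over 374 members, 272 of them with a higher estimate, which was 0.10 with the GC trend removed and 0.09 without PIO replicate 2. Oxidative phosphorylation genes had a median of 0.18 over 94 members and cytosolic ribosomal proteins one of 0.20 over 78, and with the GC trend removed these were 0.16 and 0.22, while without PIO replicate 2 they were 0.03 and -0.03. The ribosomal median was 0.31 without PIO replicate 1. Replicate 2 with pioglitazone stood above the other 2 in some genes outside these families: H2bc18, a histone, was at 47.7, 128 and 49.7 CPM and Hsp90aa1, a chaperone, at 482, 1057 and 482 CPM. Without the block 0 members of these 3 families passed, and with it 5 zinc finger genes were higher, 4 were lower and 0 of the other families passed, beside 0.705% and 1.32% of all tested genes. DESeq2 called 7 zinc finger genes higher and 3 lower and 0 of the other families, where it called 122 higher and 215 lower of all 16317 genes, and an unadjusted p under 0.05 was reached by 104 zinc finger genes upward and 14 downward, and upward by 11 genes of oxidative phosphorylation and 5 ribosomal protein genes, beside 8.5% of all tested genes upward and 7.21% downward. Of the zinc finger genes 77 were higher without overlap (20.6%) and 15 lower (4.01%), beside 9.47% and 8.71% of all tested genes. The median GC content was 50.2% for the 4 higher genes, 52.5% for the 17 lower genes and 49.8% for all tested genes, and 20 of the 21 genes passed with the GC trend removed.

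**Figure D4:**
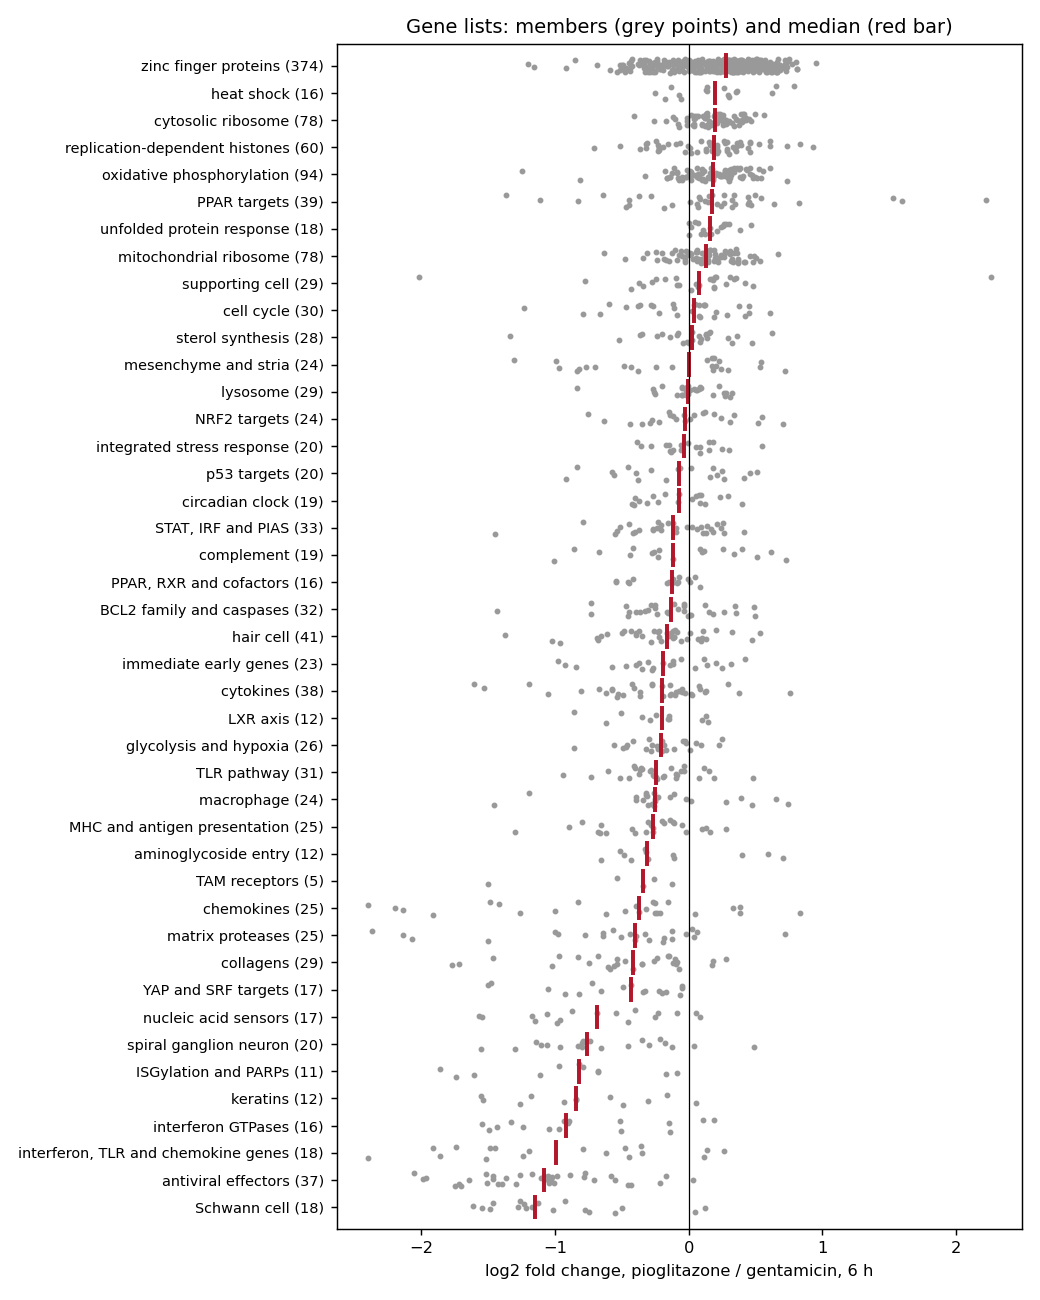
Log2 fold change of pioglitazone over gentamicin at 6 h for the members of 43 gene lists (grey points) with the median of each list (red bar) and the number of tested members in brackets. Schwann cell genes at -1.15 and antiviral effectors at -1.08 have the lowest medians and zinc finger proteins at 0.28 the highest.

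At 24 h, in other libraries, pioglitazone against gentamicin gave 7 higher genes (0.0429%) and 67 lower genes (0.411%). Of the 21 genes called at 6 h, 8 were called at 24 h in the same direction, which is 8 of the 74 called then, and all 21 had the same sign. The 8 were Cpt1a, Plau, Gli1, S100a4, Gap43, Krt19, Chd3 and Sumo3. Cpt1a had a log2 fold change of 0.82 at 6 h and 1.06 at 24 h, and S100a4 one of -1.73 and -1.89. Pdk4, below the threshold at 6 h, had 1.45 at 24 h (adjusted p = 0.0514).

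In absolute log2 fold change 17 of the 21 genes were smaller at 24 h, 4 of them among the 8 called at both times, but all 21 had been chosen by their values at 6 h. Plau had -2.13 at 6 h and -1.47 at 24 h, and Gap43 -1.56 and -1.31. Ank3 had -1.07 at 6 h and -0.12 at 24 h, Olfml3 -1.46 and -0.56, and Axl -1.50 and -0.72. In the test of the difference between the times 0 of 16317 genes passed (0%), with 564 at an unadjusted p under 0.05, among them Ank3 at 6.36e-05, and DESeq2 called 15. The interferon lists had medians at 24 h of -1.18 for antiviral effectors, -1.19 for GTPases, -0.75 for ISGylation and PARPs and -0.65 for sensors.

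With the replicate block 5 genes differed between the times (0.0306%): Ecm2, Gm3336, Scn4a, Fer1l4 and Pde4c, named after their values were seen. All 5 had higher estimates with pioglitazone at 6 h and lower ones at 24 h. Ecm2, an extracellular matrix protein, was at 3.79, 6.66 and 5.10 CPM with gentamicin and 6.32, 9.32 and 6.95 CPM with pioglitazone at 6 h, and at 17.2, 13.0 and 15.3 against 4.24, 2.02 and 4.72 CPM at 24 h (adjusted p for the difference 0.00483 with the block and 0.0844 without). Scn4a, a sodium channel of muscle, was at 4.04, 8.00 and 2.18 against 13.9, 12.6 and 9.41 CPM at 6 h, and at 2.40, 2.36 and 3.07 against 0.707, 1.04 and 0.93 CPM at 24 h (0.0208 with the block and 0.249 without).

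**Figure D5:**
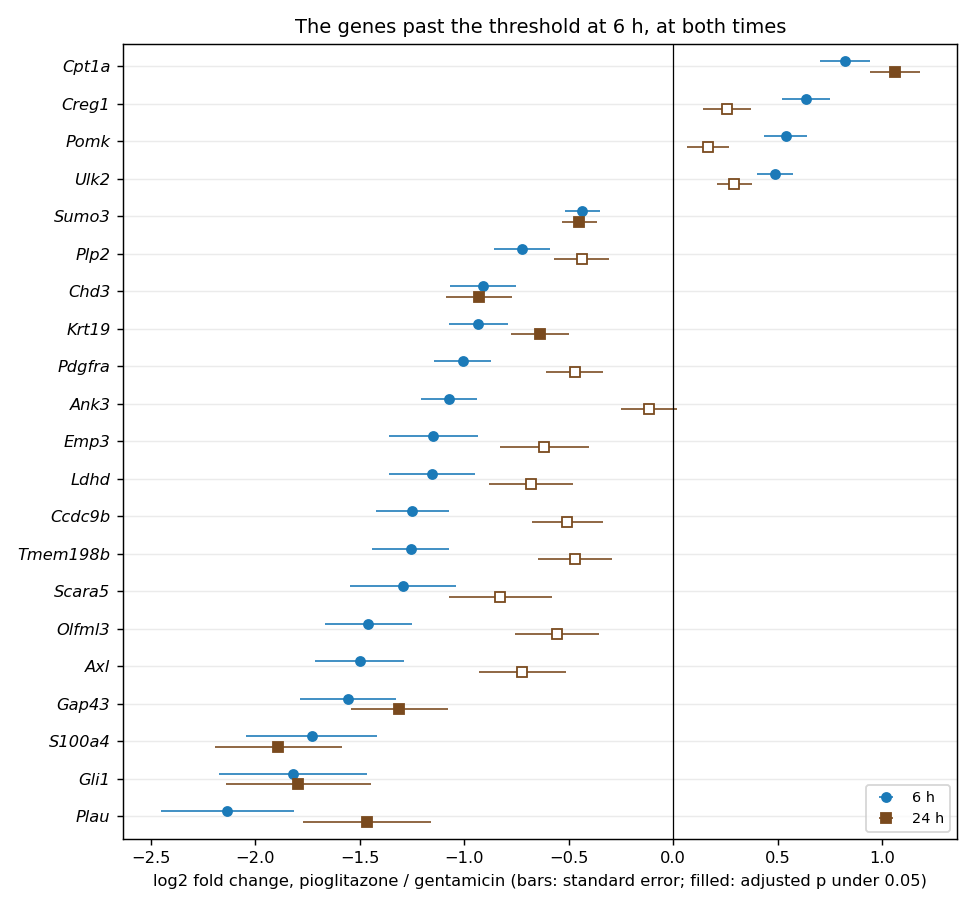
Log2 fold change of pioglitazone over gentamicin at 6 h (circles) and 24 h (squares) for the 21 genes called at 6 h, with bars for the standard error and filled symbols where adjusted p was under 0.05. All 21 have the same sign at both times, and 8 are filled at 24 h.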

How the data were processed

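Total RNA of organ of Corti explants was sequenced from stranded libraries. Per the study's methods the authors mapped reads with RNA-STAR (STAR in the submitters' notes, build mm10) and deposited raw counts, the number of reads starting in any RefSeq exon of a gene, unfiltered and not normalized, beside a gene length column used here only as a label. The use of strand and of reads with several matches is not given in the sources used here. Symbols were found for 24381 of the 24454 Entrez identifiers.

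Counts were tested with edgeR 4.0.16 in R 4.3.3: filterByExpr, TMM scaling, 1 mean for each of 8 groups over 24 libraries, quasi-likelihood F-test, two-sided, Benjamini-Hochberg adjustment over all tested genes, threshold 0.05. SE is the log2 fold change over the square root of F. Log2 CPM used a prior count of 2. Blocks were the replicate numbers within each time (6 blocks). Same-numbered PIO and GM libraries of 6 h had deviations from their group means that correlated at 0.18, 0.43 and 0.68, and differently numbered ones at -0.56 to 0.22 (PIO replicate 2 with GM replicate 1 exceeded the lowest same-numbered pair), so the numbers were taken to pair samples, from the data and the shared numbers in the labels. DESeq2 1.42.0, a likelihood ratio test, other filters and scaling, a loess GC trend (span 0.3), a Y-linked covariate and left-out libraries were alternatives. The method was tested on simulated data.

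Named genes were the genes of the study's list, up to 10 called genes in each direction by fold and 5 by p, up to 4 members per list, and uncalled genes without overlap where fewer than 10 were called. Emp3, Sumo3 and members called only with the block were added after their values were seen. The comparison, the lists and the rule were chosen with earlier results of these data known. Some items are not reported here.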

Additional observations from a re-analysis of the deposited data

How the results depend on the processing

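All 21 genes kept their direction under every alternative run. The numbers of genes called in all, higher and lower were 38, 12 and 26 with at least 10 counts in every library, 13, 1 and 12 without a filter, 337, 122 and 215 with DESeq2, 172, 48 and 124 with the likelihood ratio test, 1, 0 and 1 with the 12 libraries of 6 h, 0, 0 and 0 with the 6 libraries compared, 107, 37 and 70 with the GC trend removed, and 20, 4 and 16 without TMM factors. With the replicate block they were 331, 115 and 216, and with the block and the GC trend removed 594, 236 and 358. With Y-linked counts as a covariate they were 30, 7 and 23. With 1 library left out they ran from 10 to 86, from 1 to 42 and from 9 to 44, and the 86 came without PIO replicate 3. The test between the times called 0 genes in every fit with 1 library left out, 15 with DESeq2, 23 with the likelihood ratio test, 5 with the replicate block and 11 with the block and the GC trend removed. It could not be fitted on the libraries of 6 h alone. Fits on fewer libraries have fewer degrees of freedom, and the cause of the other shifts was not tested. Values under the alternatives were kept for 114 genes, those called and those taken by the rule, and none of these reversed a called direction. Genes added for the blocked fit, and some others such as Ifit3, were not among them. Of the values of these 114 genes under alternatives, 111 passed the threshold anew and 100 lost it. A further 18 moved by more than 1 SD between replicates, and 1699 did none of these. Of the values of list medians, 28 moved by more than 1 SD and 617 did not. At 3 libraries a side, and with 3 counts at 0.204 to 0.318 CPM, differences in genes such as Ccl12 and Hes5 were not resolved. The parts of depth and of spread between libraries in this were not tested.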
